A study of Mus musculus with 32 samples.

Results

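The axon guidance ligand and receptor genes were examined in brain tumors of 2 transgenic mouse models of medulloblastoma, a malignant tumor of the hindbrain. Members were taken by gene symbol from a table of RNA sequencing counts, as the protein-coding genes of the semaphorin (classes 3 to 7), plexin, neuropilin, Eph receptor, ephrin, Slit, Robo and netrin families together with the netrin receptors Dcc, Unc5a, Unc5b and Unc5c. Of 37310 genes in the table, 20175 of them protein coding, 67 were members. They comprised 33 receptors (9 plexins, 2 neuropilins, 14 Eph receptors, 4 Robos and 4 netrin receptors) and 34 ligands (20 semaphorins, 8 ephrins, 3 Slits and 3 netrins). Ntn3 also fits the rule but was not analysed here, and 3 genes named after Plxna4 (Plxna4os1, Plxna4os2 and Plxna4os3) are not protein coding and were left out.

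Biopsies came from 6 GMYC and 8 GTML tumors. GMYC mice carry Glt1-tTA and TRE-MYC, so that the tetracycline transactivator made from the Glt1 (glutamate transporter) promoter switches on a MYC transgene. They were kept doubly hemizygous on the FVB/N strain, which the study gives as the background of all its transgenic crosses. GTML mice express MYCN from the same promoter with the same Tet-OFF system, in which doxycycline switches the transgene off, and the labels give no treatment for these tumors. Both transgenes therefore act in cells in which the Glt1 promoter is active, in the hindbrain, and a biopsy also holds whatever other cells lie in the tumor. RNA was taken from fresh-frozen tumor and libraries followed Ion Torrent protocols. No age or sex of the animals is given in the labels. Some GTML libraries were made for an earlier study and others were new, but which ones is not given in the sources used here, so this difference and the model cannot be told apart.

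Total counts ranged from 6218378 to 7279811 per GMYC tumor and from 4602294 to 6317404 per GTML tumor, and members took 0.289 to 0.349% of them in GMYC and 0.316 to 0.439% in GTML tumors. Levels are given as CPM, the counts of a gene relative to all counts of its tumor, and scaled with TMM, a factor that removes differences in library composition. The driver genes followed the labels: mouse Myc lay at 33.3 to 165 CPM in GMYC and 2.59 to 8.66 CPM in GTML tumors, and Mycn at 7.63 to 34.3 CPM and 118 to 191 CPM. Reads of a transgene and of the mouse gene cannot be told apart in these counts. Of 5 markers that the study used for these tumors, Otx2, Syp, Tubb3 and Mki67 lay at 80.2 CPM or more in every tumor, while Npr3 ran from 4.49 to 67.3 CPM in GMYC and from 6.31 to 176 CPM in GTML tumors. GTML tumor 2 stood apart from the rest. Its level of Gli1, a target of sonic hedgehog signalling, was 14.1 CPM against at most 3.58 CPM in any other tumor, so the tested differences of the named members are given over all 8 GTML tumors and, where they moved or a call turned on it, again without it. The study had already reported a single outlier among its 8 GTML tumors, with a signature like the sonic hedgehog subgroup. It compared only the 7 GTML tumors classed as Group 3 with GMYC. The number of the outlier is not given in the sources used here. Small nucleolar RNAs also split the tumors: they took at least 0.3% of counts in GMYC tumors 1 to 4 and GTML tumors 1 and 2 and less in the other 8. No label gives this split, which was found in the data. It follows the order in which the samples are listed, with the tumors of the higher share first, and its cause was not tested.

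Axon guidance genes encode the cues that steer growing axons and migrating neurons and the receptors that read them. Semaphorins signal through plexins, and the secreted class 3 semaphorins mostly need a neuropilin as coreceptor. Ephrins are anchored in the membrane and signal to Eph receptor tyrosine kinases on the neighbouring cell, with signals running in both directions, Slits repel axons through Robo receptors, and netrins attract through Dcc or repel through Unc5 receptors. In the developing cerebellum these systems guide the migration of granule neuron precursors and the growth of their axons, and several of the genes are also used by blood vessels.

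A gene was called when edgeR's quasi-likelihood test gave an adjusted p under 0.01 (Benjamini-Hochberg, over all genes tested) and an absolute log2 fold change above 1. Log2 fold changes are GTML over GMYC and are given with their standard error (SE). All 67 members had a CPM above 1 in at least 3 tumors and were tested. Over 8 GTML tumors, 3 members were called higher in GTML (Plxna4, Efnb1 and Sema5b), where 2.11% of all 21024 tested genes were called in that direction, and 2 were called higher in GMYC (Plxnc1 and Robo2), where 1.1% of all genes were. All members are protein coding, and of 15333 protein-coding genes tested 341 were called higher in GTML and 91 in GMYC. With an adjusted p under 0.05 and any fold change, 12 members were higher in GTML and 3 in GMYC, against a background of 11.5% and 9.71% of all genes. Of the 15333 protein-coding genes 1870 and 1197 passed this looser rule. Of the 67 log2 fold changes 51 were above 0 and 16 below, and their median was 0.43, while the median over all genes was 0.04. Over all genes 11033 of 21024 log2 fold changes were above 0. With the trend with exon length removed, 43 members were above 0 and 24 below, where 9709 of 19666 genes were above 0. Without GTML tumor 2 the calls were 6 higher in GTML, with Dcc, Efnb3 and Sema3f added (background 4.96%), and 4 higher in GMYC, with Efna5 and Sema3g added (background 2.8%). Of 15284 protein-coding genes 771 and 184 were called without that tumor. Leaving out GMYC tumor 3 or GMYC tumor 5 instead left Efnb1 as the one member called higher in GTML. In these fits 74 of 20965 and 93 of 20942 tested genes were called in that direction. On the looser rule without GTML tumor 2, 16 and 5 members then passed (background 15.6% and 15.1%), and the median was 0.31. Of the 15284 protein-coding genes 2478 and 1928 passed that rule. Over all tumors, only Efnb1 of the 67 had every GTML tumor above every GMYC tumor (2.14% of all genes did), and no member had the reverse order (2.48% of all genes). Without GTML tumor 2 this held for Efnb1, Plxna4, Sema5b and Dcc (background 4.42%) and for no member in the reverse order (background 4.25%).

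**Figure D1:**
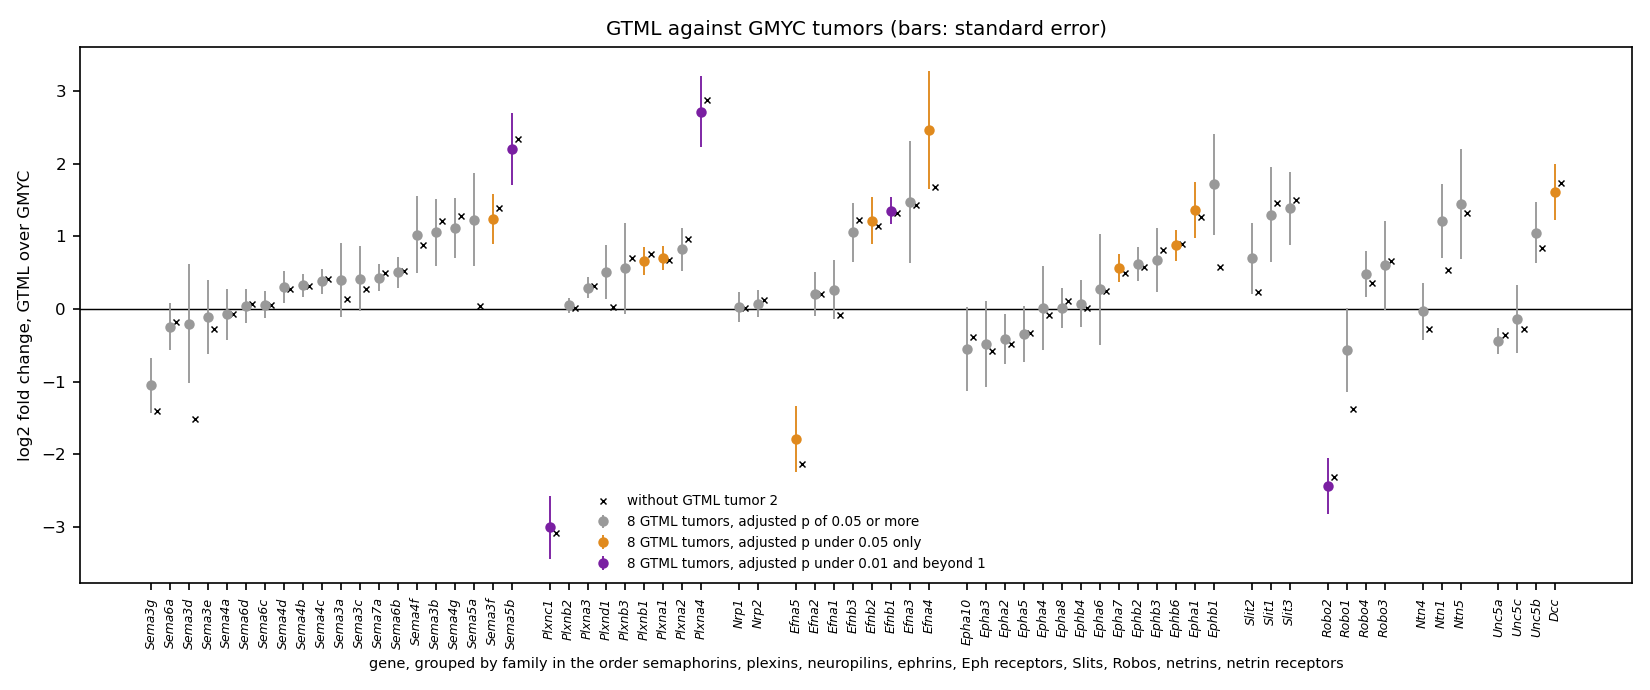
Log2 fold change (GTML over GMYC, vertical axis) of the 67 members, grouped by family along the horizontal axis. Circles with bars are the estimates over 8 GTML tumors with their standard errors, purple where called, orange where only the adjusted p is under 0.05 and grey otherwise, and crosses are the estimates without GTML tumor 2. Plxnc1 at -2.999 and Robo2 at -2.43 lie lowest and Plxna4 at 2.71 highest.

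The families were then counted as receptors and ligands. Among the 33 receptors 7 were higher in GTML and 2 in GMYC at an adjusted p under 0.05, with a median log2 fold change of 0.29, and without GTML tumor 2 the counts were 7 and 3. Among the 34 ligands the counts were 5 and 1, with a median of 0.47, and without GTML tumor 2 they were 9 and 2. The background over all genes was 11.5% and 9.71% with that tumor and 15.6% and 15.1% without it, and no difference between these 2 groups was tested. The summed level of all members was 2929 to 3459 CPM in GMYC and 3177 to 4500 CPM in GTML tumors, so the 2 ranges overlap. The 33 receptors summed to 2223 to 2714 CPM in GMYC and 2304 to 3274 CPM in GTML tumors, and the 34 ligands to 620 to 905 CPM and 758 to 1226 CPM.

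The promoters of the 3 called genes that kept their call whichever single tumor was left out are printed here, so that the DNA just before each start can be read beside the values. Each is the 250 bases before an annotated start site in RefSeq on GRCm38.p6, read 5′ to 3′ on the strand of the gene. Capitals mark CACGTG, the palindromic E-box to which MYC or MYCN with MAX can bind, searched on both strands.
Efnb1, chrX:99135811-99136060, plus strand: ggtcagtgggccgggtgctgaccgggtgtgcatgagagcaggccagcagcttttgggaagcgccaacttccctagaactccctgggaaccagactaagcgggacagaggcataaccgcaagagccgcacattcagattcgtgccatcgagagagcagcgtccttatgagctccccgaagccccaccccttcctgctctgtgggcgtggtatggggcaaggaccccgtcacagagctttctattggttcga
Plxnc1, chr10:94944846-94945095, minus strand: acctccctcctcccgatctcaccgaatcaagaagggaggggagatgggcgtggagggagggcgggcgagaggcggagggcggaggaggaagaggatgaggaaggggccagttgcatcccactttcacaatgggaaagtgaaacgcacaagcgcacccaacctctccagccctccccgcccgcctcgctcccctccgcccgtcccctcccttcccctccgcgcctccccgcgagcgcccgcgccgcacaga
Robo2, chr16:75447294-75447543, minus strand: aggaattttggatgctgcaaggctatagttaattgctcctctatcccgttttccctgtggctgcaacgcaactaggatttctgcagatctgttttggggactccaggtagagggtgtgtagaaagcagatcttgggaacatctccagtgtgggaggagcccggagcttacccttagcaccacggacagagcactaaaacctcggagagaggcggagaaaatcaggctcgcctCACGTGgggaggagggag
Robo2 has 3 annotated start sites in this table, and the run shown belongs to the one with a match, which begins 18 bases before the start. The other 2 windows of Robo2 and those of Efnb1 and Plxnc1 hold none. Windows of 300 bases (250 before and 50 after the start) were given for 58 of the 67 members. CACGTG was in 5 of the 74 windows of members (6.76%), those of Epha8, Robo2, Sema3e, Sema4b and Sema6d, and in 7.15% of all 32851 windows. TAATCC or its reverse complement GGATTA, the core to which OTX2 and CRX bind, was in 2 of the 74 windows (2.7%), those of Robo3 and Robo4, and in 7.06% of all windows. A match is a description of the letters and not a measured binding site.

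Plexins, the semaphorin receptors, held both the strongest rise and the strongest fall. Plxna4, a receptor for class 3 and class 6 semaphorins, ranged from 8.75 to 34.0 CPM in GMYC tumors (median 25.6) and from 18.2 to 253 CPM in GTML tumors (median 143). GTML tumor 2 was the one at 18.2 CPM, inside the GMYC range, and the other 7 GTML tumors all lay at 72.2 CPM or more, above every GMYC tumor. Plxna4 was 6.54-fold higher in GTML (log2 fold change 2.71, SE 0.49, adjusted p = 0.00401 with edgeR), and 7.36-fold higher without GTML tumor 2 (2.88, SE 0.37, adjusted p = 0.000621). Its adjusted p was above 0.01 without GMYC tumor 3 (0.0123), without GMYC tumor 5 (0.011) and with limma-voom (0.0159). The 3 noncoding genes antisense to or named after Plxna4 were low, at up to 17.9 CPM for Plxna4os2 in 1 GTML tumor, and Plxna4 shared 0.78% of its exon bases with Plxna4os3.

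Plxnc1, the receptor for Sema7a, ran the other way. It ranged from 17.1 to 229 CPM in GMYC tumors (median 157) and from 7.97 to 25.3 CPM in GTML tumors (median 18.5). The groups overlapped only through GMYC tumor 2 at 17.1 CPM, since the other 5 GMYC tumors lay at 83.7 CPM or more. Expression was 7.99-fold lower in GTML (log2 fold change -2.999, SE 0.43, adjusted p = 0.00158 with edgeR) and 8.49-fold lower without GTML tumor 2 (-3.09, SE 0.46, adjusted p = 0.00117). With limma-voom the adjusted p of Plxnc1 was 0.0115. Its ligand Sema7a, a membrane-anchored semaphorin, lay at 28.3 to 49.7 CPM in GMYC and 35.1 to 70.5 CPM in GTML tumors, with a log2 fold change of 0.43 (SE 0.18, adjusted p = 0.0967) over 8 tumors and 0.49 (adjusted p = 0.0433) over 7.

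**Figure D2:**
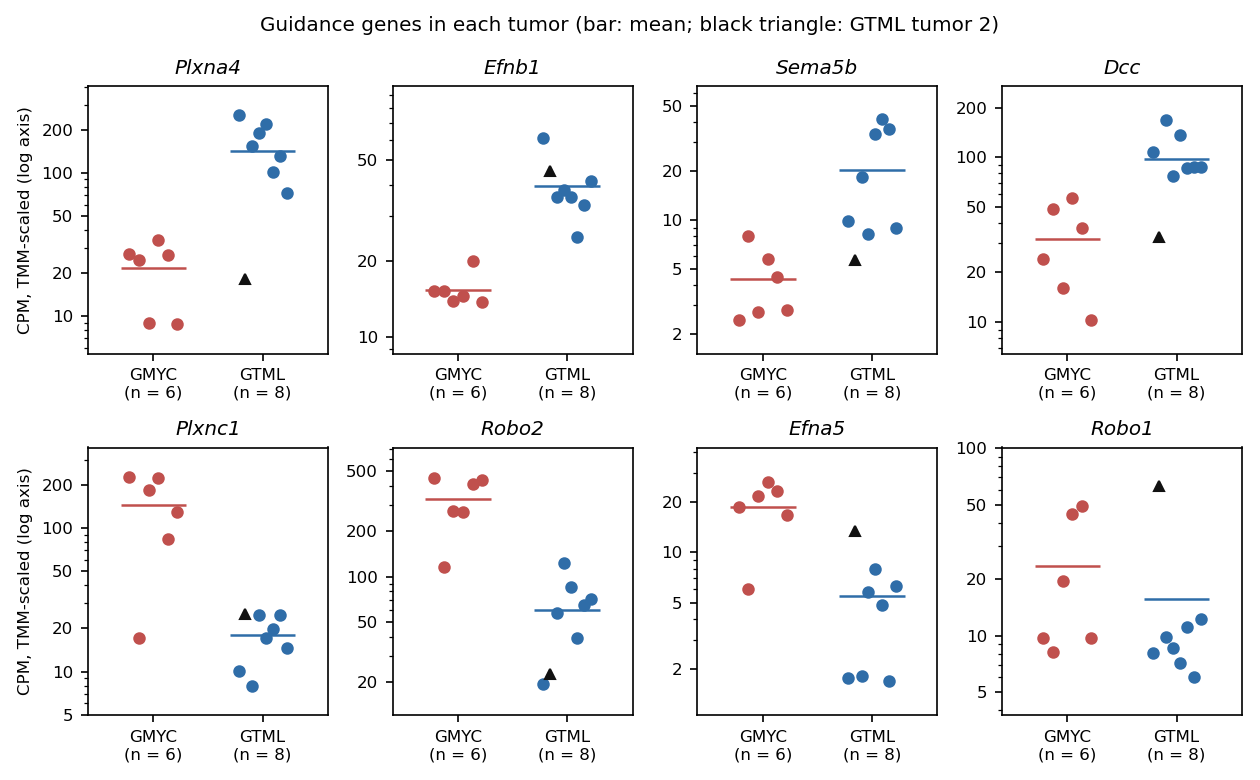
Level of 8 members in each tumor (vertical axis, TMM-scaled CPM on a log scale that differs between panels) for 6 GMYC and 8 GTML tumors. Points are tumors, horizontal bars are group means, and the black triangle is GTML tumor 2. The triangle sits with the GMYC tumors for Plxna4 (18.2 CPM), Sema5b (5.68 CPM) and Dcc (32.8 CPM), and above all other tumors for Robo1 (63.0 CPM).

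Other plexins changed less. Plxna1 rose 1.62-fold (log2 fold change 0.70, SE 0.17, adjusted p = 0.0121, and 0.011 without GTML tumor 2), from 69.6 to 89.97 CPM in GMYC to 68.6 to 166 CPM in GTML tumors, where GTML tumor 3 was the lowest of all 14. Plxnb1, a receptor for Sema4d, rose 1.58-fold (0.66, SE 0.19, adjusted p = 0.0262, and 0.00406 without GTML tumor 2), with 95.4 to 183 CPM in GMYC and 113 to 299 CPM in GTML tumors. Its adjusted p went above 0.05 when any of GMYC tumors 1, 3, 5 or 6 or GTML tumor 7 was left out, up to 0.061. Plxna2 had a log2 fold change of 0.82 (adjusted p = 0.0589) over 8 tumors and 0.96 (SE 0.23, adjusted p = 0.00868) without GTML tumor 2, which was the lowest of all tumors at 86.5 CPM. Plxnb2 was the steadiest member, at 314 to 419 CPM in GMYC and 308 to 453 CPM in GTML tumors (0.05, SE 0.10, adjusted p = 0.725). Neuropilins, the coreceptors of class 3 semaphorins, gave log2 fold changes of 0.08 (SE 0.18) for Nrp2 and 0.03 (SE 0.20) for Nrp1, and neither passed the test.

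Of the 20 semaphorins 15 had a log2 fold change above 0, beside 11033 of all 21024 genes, and Sema5b and Sema3f passed an adjusted p of 0.05. Sema5b, a transmembrane semaphorin that inhibits neurite growth, ranged from 2.44 to 8.01 CPM in GMYC tumors (median 3.66) and from 5.68 to 41.4 CPM in GTML tumors (median 14.1). The lowest GTML tumor was tumor 2, and the other 7 lay at 8.19 CPM or more, so just above the highest GMYC tumor. Sema5b was 4.59-fold higher in GTML (log2 fold change 2.20, SE 0.50, adjusted p = 0.00979 with edgeR) and 5.07-fold higher without GTML tumor 2 (2.34, SE 0.47, adjusted p = 0.00355). This call stood at the threshold: it was lost in 10 of the 14 fits with 1 tumor left out, with an adjusted p of up to 0.0274 (GMYC tumors 1 and 3 to 6 and GTML tumors 3 and 5 to 8), and with limma-voom (0.0194). Sema3f, which repels axons through Nrp2, rose 2.36-fold (1.24, SE 0.34, adjusted p = 0.021). It lay at 29.4 to 54.7 CPM in GMYC tumors (median 45.4) and at 21.3 to 149 CPM in GTML tumors (median 118), where GTML tumor 2 was the lowest of all 14 tumors and GTML tumor 4 was also inside the GMYC range at 41.3 CPM. Without GTML tumor 2 Sema3f rose 2.62-fold (1.39, SE 0.24, adjusted p = 0.00197), and without GMYC tumor 3 its adjusted p was 0.0502.

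With edgeR over 8 GTML tumors no semaphorin with a log2 fold change below 0 passed an adjusted p of 0.05. Without GTML tumor 2 Sema3g, a class 3 semaphorin made by vascular endothelium, was the 1 that did. Over 8 GTML tumors DESeq2 and limma-voom each passed 1 semaphorin with that sign, beside 2547 and 2388 of all 21024 genes. Among the tumors with the lower small nucleolar RNA share 2 passed, beside 1334 of 19948 genes. The level of Sema3g was 10.1 to 44.3 CPM in GMYC tumors (median 27.0) and 6.00 to 33.4 CPM in GTML tumors (median 8.92). GTML tumor 2 was the highest GTML tumor. Over 8 tumors the log2 fold change was -1.05 (SE 0.38, adjusted p = 0.0603), and without GTML tumor 2 it was -1.40 (SE 0.32, adjusted p = 0.0063). Sema3b (1.21, adjusted p = 0.0339) and Sema4g (1.28, adjusted p = 0.0104) passed 0.05 in the same 7 tumors with the opposite sign.

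Of the 8 ephrins, 3 were higher in GTML and 1 in GMYC by the looser rule, both over 8 and over 7 GTML tumors, beside the backgrounds given above. Efnb1, an X-linked ligand of EphB receptors, ranged from 13.8 to 19.9 CPM in GMYC tumors (median 14.8) and from 24.8 to 61.1 CPM in GTML tumors (median 37.0). No GTML tumor overlapped a GMYC tumor, GTML tumor 2 included, at 45.3 CPM. Efnb1 was 2.55-fold higher in GTML (log2 fold change 1.35, SE 0.19, adjusted p = 0.00139 with edgeR) and 2.50-fold higher without GTML tumor 2 (1.32, SE 0.19, adjusted p = 0.00111), and its adjusted p stayed at 0.00539 or less whichever tumor was left out. Efnb2, which marks arterial endothelium and also guides axons, rose 2.32-fold (1.22, SE 0.32, adjusted p = 0.0169, and 0.018 without GTML tumor 2), from 9.62 to 32.2 CPM (median 13.5) to 12.5 to 50.6 CPM (median 37.3), with GTML tumor 3 lowest among GTML tumors and GMYC tumor 6 highest among GMYC tumors. Efnb3, a midline repellent in the spinal cord, was at 5.87 to 16.6 CPM in GMYC tumors and 15.2 to 36.4 CPM in 7 GTML tumors, while GTML tumor 2 had 3.08 CPM, the lowest of all 14. Its log2 fold change was 1.05 (SE 0.40, adjusted p = 0.0708) with and 1.22 (SE 0.28, adjusted p = 0.00666) without that tumor.

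The A-class ephrins, which are held in the membrane by a lipid anchor, moved in both directions. Efna5, which guides retinal axons, fell 3.44-fold in GTML (log2 fold change -1.78, SE 0.46, adjusted p = 0.015), from 6.04 to 26.6 CPM (median 20.1) to 1.69 to 13.5 CPM (median 5.33). GMYC tumor 2 was the one low GMYC tumor and GTML tumor 2 the highest GTML tumor. Without the latter Efna5 fell 4.37-fold (-2.13, SE 0.42, adjusted p = 0.00349). Efna4 was scarce, at 0.153 to 5.22 CPM in GMYC and 1.33 to 8.56 CPM in 7 GTML tumors, with GTML tumor 2 at 29.5 CPM. Its log2 fold change of 2.46 (SE 0.81, adjusted p = 0.0419) was 1.68 (SE 0.68, adjusted p = 0.0705) without GTML tumor 2, and it missed 0.05 in 11 of the 14 fits with 1 tumor left out.

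Among the 14 Eph receptors 3 rose at an adjusted p under 0.05, none fell, and none was called on the stricter rule with edgeR, while 5 had an unadjusted p under 0.05, and DESeq2 called 1 and limma-voom 0. Over all genes 11.5% rose by the looser rule, and without GTML tumor 2 the count of Eph receptors was 2, beside 15.6% of all genes. Of all 21024 genes 4280 rose at an unadjusted p under 0.05, and DESeq2 called 1312 and limma-voom 418 higher in GTML. Ephb6, a member of the family that lacks kinase activity, rose 1.84-fold (log2 fold change 0.88, SE 0.21, adjusted p = 0.0119, and 0.00903 without GTML tumor 2), from 17.9 to 48.0 CPM (median 25.1) to 37.5 to 65.3 CPM (median 47.9). Only GMYC tumor 2, at 48.0 CPM, reached the GTML range. Epha1 was low in all tumors, at 1.12 to 2.69 CPM in GMYC and 1.76 to 8.13 CPM in GTML tumors (1.36, SE 0.39, adjusted p = 0.0232, and 0.0255 without GTML tumor 2). It shared 6.01% of its exon bases with Zyx on the other strand, and its adjusted p was above 0.05 without GMYC tumor 3 (0.0565) or GMYC tumor 5 (0.0537). Epha7 rose 1.48-fold (0.57, SE 0.19, adjusted p = 0.0485), from 36.3 to 68.0 CPM to 53.1 to 103 CPM, and missed 0.05 in 9 of the 14 fits with 1 tumor left out, that without GTML tumor 2 among them (0.0607). Epha8 had the highest level per exon length of the family and did not pass (0.02, SE 0.27, adjusted p = 0.968), with 59.7 to 176 CPM in GMYC and 66.2 to 202 CPM in GTML tumors.

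Robo2, a receptor that repels axons on binding Slits, was the second member to fall by the stricter rule. It ranged from 117 to 449 CPM in GMYC tumors (median 342) and from 19.4 to 122 CPM in GTML tumors (median 61.0). GMYC tumor 2, at 117 CPM, and GTML tumor 4, at 122 CPM, were the only tumors in the overlap. Robo2 was 5.40-fold lower in GTML (log2 fold change -2.43, SE 0.38, adjusted p = 0.00238 with edgeR) and 4.95-fold lower without GTML tumor 2 (-2.31, SE 0.36, adjusted p = 0.00149). With any single tumor left out the adjusted p was at most 0.00731. Its promoter run with the E-box is printed above.

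Robo1, the other main Slit receptor of neurons, depended on a single tumor. GTML tumor 2 had 63.0 CPM, the highest of all 14, whereas the other 7 GTML tumors lay between 6.03 and 12.2 CPM. GMYC tumors spanned 8.15 to 48.8 CPM (median 14.6), with GMYC tumors 4 and 5 at 44.3 and 48.8 CPM. Over 8 GTML tumors Robo1 had a log2 fold change of -0.57 (SE 0.58, adjusted p = 0.491), and without GTML tumor 2 it was -1.38 (SE 0.42, adjusted p = 0.0233). The remaining Robos were low: Robo4, an endothelial receptor, lay at 2.12 to 11.04 CPM and Robo3 at 0.423 to 9.23 CPM over all tumors, and neither passed the test.

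All 3 Slits, the secreted Robo ligands, had log2 fold changes above 0, as did 11033 of all 21024 genes. None of the Slits passed an adjusted p of 0.05 with edgeR over 8 GTML tumors, while 1 had an unadjusted p under 0.05 and DESeq2 and limma-voom each passed 1. Of all 21024 genes 4280 rose at an unadjusted p under 0.05, and DESeq2 passed 3305 and limma-voom 2101 in that direction. Slit3 came closest, at 1.55 to 20.6 CPM in GMYC and 10.1 to 42.1 CPM in GTML tumors (1.38, SE 0.50, adjusted p = 0.0583). Without GTML tumor 2 it was 1.499 (SE 0.49, adjusted p = 0.033), and without GMYC tumor 5 the adjusted p was 0.0333. Slit2, which repels axons at the midline, lay at 10.3 to 67.0 CPM in GMYC and 25.9 to 94.5 CPM in 7 GTML tumors, with GTML tumor 2 at 204 CPM.

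Dcc, the receptor through which netrin-1 attracts axons, rose 3.04-fold in GTML (log2 fold change 1.61, SE 0.38, adjusted p = 0.0115). It ranged from 10.3 to 56.2 CPM in GMYC tumors (median 30.7) and from 32.8 to 169 CPM in GTML tumors (median 87.2). GTML tumor 2 was again the lowest GTML tumor and the only one inside the GMYC range, since the others lay at 76.5 CPM or more. Without it Dcc rose 3.33-fold (1.74, SE 0.34, adjusted p = 0.00346). Unc5a, a netrin receptor of the repulsive kind, had the highest level per exon length of the netrin receptors, at 41.1 to 69.3 CPM in GMYC and 26.3 to 59.3 CPM in GTML tumors (-0.43, SE 0.18, adjusted p = 0.09, and 0.0977 without GTML tumor 2). Unc5b, which also acts in vessels, had a log2 fold change of 1.05 (SE 0.42, adjusted p = 0.0829), and 0.84 (adjusted p = 0.123) without GTML tumor 2. The netrins themselves were sparse. Ntn4, a basement membrane netrin, lay at 8.84 to 19.2 CPM in GMYC and 4.30 to 24.7 CPM in GTML tumors (-0.03, SE 0.39, adjusted p = 0.96), and Ntn1 at 4.12 to 14.1 CPM and 5.81 to 63.1 CPM, with GTML tumor 2 highest. Ntn5 reached 2.29 CPM at most and shared 23.4% of its exon bases with Sec1.

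**Figure D3:**
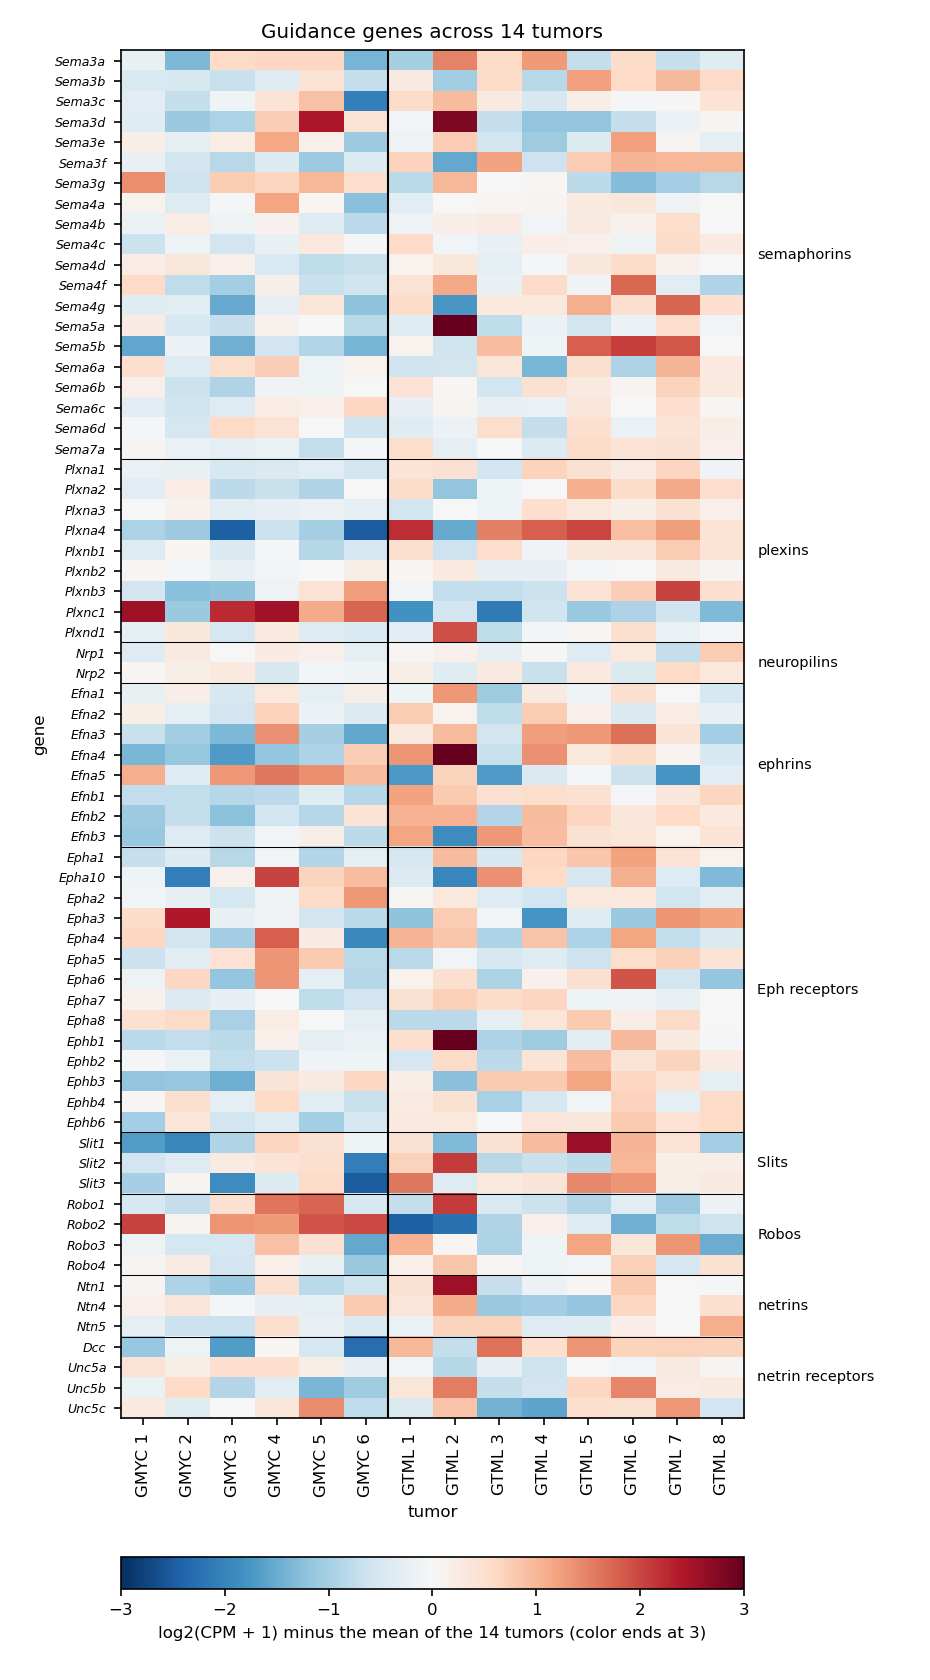
Heat map of the 67 members (rows, by family) in 14 tumors (columns, GMYC left of the line). Color is log2(CPM + 1) minus the mean of the 14 tumors, with the scale ending at 3 in both directions. Plxna4, Plxnc1 and Robo2 differ between the models apart from GTML 2 (Plxna4) and GMYC 2 (Plxnc1 and Robo2), and GTML 2 shows high values of its own (Sema5a at 133 CPM, Ephb1 at 60.2 CPM).

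GTML tumor 2 stood apart from the other GTML tumors by the number of its high values, but not by that of its low ones. It was the highest GTML tumor for 20 members, the highest of all 14 tumors for 17, and the lowest GTML tumor for 16. Other GTML tumors were highest for 2 to 14 members and lowest for 1 to 18, the 18 being in GTML tumor 3. The same counts over all genes are not given here, so these numbers only describe the members. For 6 members, picked out after their values were seen, GTML tumor 2 was more than 2 times the highest other tumor. Sema5a had 133 CPM in it and at most 19.96 CPM elsewhere, Ephb1 60.2 against 11.4, and Ntn1 63.1 against 18.01. Efna4 had 29.5 CPM against at most 8.56, Plxnd1 164 against 59.8, and Slit2 204 against 94.5. As background, Plxnd1 and Sema5a act in vessels as well as in neurons, and Ntn1 and Slit2 are secreted midline cues. These 6 genes did not pass the test without that tumor, with log2 fold changes between 0.03 (Plxnd1) and 1.68 (Efna4). The markers chosen for the whole gene group, Plxna4 and Robo1, were thus placed on opposite sides in GTML tumor 2, with Plxna4 lowest and Robo1 highest among the GTML tumors.

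Levels can be compared between genes only per exon length, as RPKM, here the scaled CPM divided by exon length in kilobases. On that scale the most abundant members were Plxnb2 (47.0 ± 4.56 in GMYC and 48.8 ± 6.98 in GTML tumors, mean ± SD, n = 6 and 8), Nrp2 (34.5 ± 6.32 and 36.3 ± 10.4) and Epha8 (26.4 ± 9.11 and 26.8 ± 10.4). The means of Plxnb2 and Nrp2 differed by more than the SD of either, while those of Nrp2 and Epha8, the next in order, differed by less than the larger SD of the pair in each model. Plxna3 (18.2 ± 2.33 and 22.3 ± 4.92), which works with Nrp2, and Plxnb1 (14.5 ± 3.32 and 22.8 ± 5.94) followed. Among semaphorins Sema4c had the highest mean over all tumors, at 14.8 ± 3.78 and 19.3 ± 4.14 RPKM, within 1 SD of Sema6c in GMYC tumors (14.7 ± 4.83) and of Sema3f in GTML tumors (19.6 ± 8.84), with 7.27% of its exon bases shared with an antisense gene. Robo2 and Plxnc1 were also among the abundant members in GMYC tumors, at 19.1 ± 7.63 and 17.3 ± 10.1 RPKM, but not in GTML tumors, at 3.54 ± 2.01 and 2.17 ± 0.820 RPKM. Plxna4 went from 1.54 ± 0.739 to 10.1 ± 5.53 RPKM. Efnb1 was the most abundant ephrin in GTML tumors at 11.4 ± 3.07 RPKM and had 4.47 ± 0.661 RPKM in GMYC tumors, where Efna5 had 4.67 ± 1.78 RPKM.

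**Figure D4:**
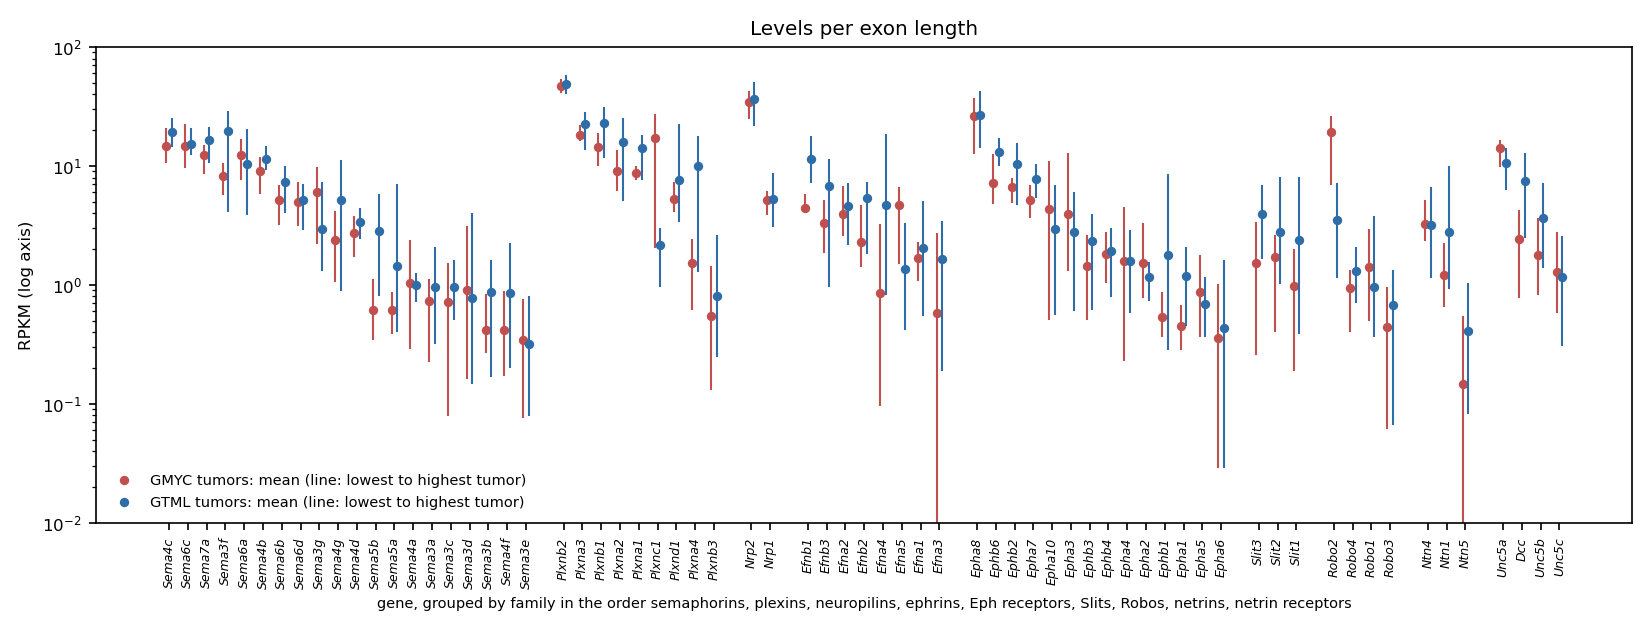
Level per exon length (RPKM, log axis) of the 67 members, grouped by family and ordered within it by mean. Points are means of 6 GMYC (red) and 8 GTML (blue) tumors and lines run from the lowest to the highest tumor. A line that reaches the lower edge includes a tumor with no count. Plxnb2, Nrp2 and Epha8 lie highest, at 47.0, 34.5 and 26.4 RPKM in GMYC tumors.

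Members varied to very different degrees between tumors. Plxnb2 spanned 308 to 453 CPM over all 14 tumors, a 1.47-fold range, and Plxna3 spanned 108 to 225 CPM, a 2.08-fold range. By the SD of log2(CPM + 1), which gives little weight to scarce genes, Plxnc1 (7.97 to 229 CPM) and Plxna4 (8.75 to 253 CPM) varied most of the 67, at 1.67 and 1.64. Scarcer genes spanned wider folds than the 28.7-fold and 28.9-fold of these 2, such as Efna4 at 193-fold and Slit1 at 42.7-fold. Robo2 followed at 1.52 and Efna4 at 1.32. Plexins thus held both the smallest and the largest SD of the 67 members.

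The other genes of the pathway were followed in 2 lists, 31 further cues and coreceptors and 40 intracellular effectors. Of these 71 genes 4 were called higher in GTML and 1 in GMYC over 8 tumors (background as above, 2.11% and 1.1%), and 6 and 1 without GTML tumor 2 (background 4.96% and 2.8%). Their median log2 fold change was 0.02 over 8 tumors. Farp1, a guanine nucleotide exchange factor linked to plexin A receptors, rose from 7.18 to 31.1 CPM in GMYC to 36.8 to 72.2 CPM in GTML tumors, with no overlap (1.59, SE 0.29, adjusted p = 0.00451). Unc5d, an Unc5 receptor that the symbol rule leaves out, rose with a log2 fold change of 2.08 (SE 0.43, adjusted p = 0.00676), from 3.21 to 19.4 CPM to 14.1 to 62.8 CPM. L1cam, a cell adhesion molecule that joins neuropilin complexes (2.08, SE 0.45, adjusted p = 0.0083), and Flrt1, of a family that binds Unc5 receptors (2.70, SE 0.60, adjusted p = 0.00868), rose as well. Pak1, a kinase that acts on the cytoskeleton downstream of Rac, fell (-1.26, SE 0.27, adjusted p = 0.00759). Each of these 5 calls was lost when certain single tumors were left out, in 5 of 14 fits for Farp1, 8 for Unc5d and 11 for each of L1cam, Flrt1 and Pak1, with an adjusted p of up to 0.0231.

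Markers of other cells in the biopsies were read beside these results, since several members are also made by vessels and neurons. In bulk RNA, fewer cells of a type and less RNA per cell cannot be told apart. The 10 endothelial markers summed to 88.4 to 222 CPM in GMYC and 162 to 333 CPM in GTML tumors, and 2 of them (Kdr and Esam) rose at an adjusted p under 0.05. Of the 10, 7 had a log2 fold change above 0 and 3 below, namely Cldn5 (-0.67), Tie1 (-0.25) and Cdh5 (-0.07), which did not pass. Kdr alone took 150 CPM of the sum in GTML tumor 6 and 142 CPM in GTML tumor 8. Photoreceptor genes, which these tumors express, summed to 750 to 957 CPM in GMYC and 1002 to 2035 CPM in 7 GTML tumors, and 6 of 10 rose. GTML tumor 2 had the lowest sum, 414 CPM. It was lowest too for the mature neuron list, at 884 CPM against 1296 to 1873 CPM in other GTML and 1256 to 1693 CPM in GMYC tumors, and highest among GTML tumors for the Purkinje cell list, at 430 CPM against at most 275. Of the remaining lists, pericytes and fibroblasts, microglia and macrophages, astrocytes and Purkinje cells had no gene past 0.05 over 8 tumors, the oligodendrocyte list had 1 up and 2 down, granule neurons 1 up and 3 down, mature neurons 0 up and 1 down, choroid plexus 1 up and 1 down, and erythroid genes 0 up and 4 down. No marker was at 0 in all tumors. The part of these cells in the differences of the members was not tested.

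Within the 2 sides of the small nucleolar RNA split the 5 called genes had the same signs as over all tumors. The calls were made on these same tumors, so the shared signs are no separate check on the split. Among the tumors with the higher share the log2 fold changes were 2.53 for Plxna4, 1.87 for Efnb1, 0.72 for Sema5b, -3.19 for Plxnc1 and -3.71 for Robo2, with adjusted p between 0.0949 and 0.617 on 4 GMYC against 2 GTML tumors. Among the tumors with the lower share they were 3.03, 1.03, 2.72, -2.56 and -2.53, with adjusted p between 0.00433 and 0.0404 on 2 GMYC against 6 GTML tumors. Robo1 changed sign between the sides, with 0.82 (adjusted p = 0.724) on the higher side, which holds GTML tumor 2, and -1.68 (adjusted p = 0.0465) on the lower side. Among the named members with small differences, Epha8 (-0.99 and 0.45), Ntn4 (0.79 and -0.58), Nrp2 (-0.11 and 0.21), Plxnb2 (0.28 and -0.12) and Sema4c (0.69 and -0.002) had opposite signs on the higher and the lower side as well, and none of them passed on either side. Counts on Y-linked genes were 2115 or more in every GMYC tumor and 16 or fewer in GTML tumors 2, 3, 5 and 8, so 4 of the 8 GTML tumors lacked counts that every GMYC tumor had. With Y-linked expression as a covariate the 5 genes had log2 fold changes of 2.89, 1.32, 2.46, -2.86 and -2.42, with adjusted p between 0.0109 and 0.0227, so that none of them passed the stricter rule.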

How the data were processed

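Counts from biopsies of 6 GMYC and 8 GTML tumors were used. The authors aligned reads to mm9 with STAR and Bowtie and counted them per gene with featureCounts and GENCODE, and they deposited whole-number counts without normalization. The submitters' processing notes list STAR 2.4.0, Bowtie2 2.2 and Subread 1.5.2. The strand setting is not given in the sources used here. A further 18 columns of per-sample counts match no label and were not used.

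GENCODE vM21 (GRCm38) gave the symbol, type and exon length by Ensembl identifier for 32620 of 37310 genes (87.4%). No coordinates are given for the counts. Promoter sequences are from RefSeq on GRCm38.p6.

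Counts were tested with edgeR 4.0.16 in R 4.3.3 (TMM and the quasi-likelihood test). Genes entered if at least 3 tumors exceeded a CPM of 1, and p-values were adjusted by Benjamini and Hochberg over all of them. The SE is the log2 fold change divided by the square root of the F statistic. RPKM is the scaled CPM per exon kilobase. Replicates are tumors with separate labels, which do not name the animals, so p-values measure the spread between these samples. The chi-square per degree of freedom between any pair of 1 model was at least 5.67. Intervals from counts would cover counting error only, and the highest count per exon base of a member was 0.385. Members with named values were Plxna4 and Robo1, those past either call rule, and the highest of each family in RPKM, and other members were chosen after their values were seen. The members and lists were chosen with earlier results of these data known. Alternatives were DESeq2 1.42.0, limma-voom (limma 3.58.1), other scalings, filters and gene sets, a replicate block, terms for the small nucleolar RNA share and for Y-linked genes, thinned counts, removal of the trend with exon length, and leaving out tumors. The fits were tested on simulated data. Python 3.11.15 with matplotlib 3.10.9 made the plots.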

Additional observations from a re-analysis of the deposited data

Results flagged for a closer look

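Each member was checked in each model for a tumor whose gap to its nearest neighbour took an unusually large share of the whole range (Dixon's test at the 95% level). Of 134 such groups 24 exceeded the critical value, and in each of them the tumor was the highest of its model. About 6.7 would be expected from independent groups with normally distributed values. The test was run on CPM without a log scale, and the groups share the same 14 tumors. The 2 numbers therefore do not show an excess of outliers, and the flags only describe where the gaps lie. GTML tumor 2 accounted for 10, GMYC tumor 5 for 4, GMYC tumor 4 for 3, GMYC tumors 2 and 6 for 2 each, and GTML tumors 5, 6 and 7 for 1 each.

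In GTML tumor 2 these were Sema5a at 133 CPM against 19.96 CPM in the next GTML tumor, Slit2 at 204 against 94.5, Plxnd1 at 164 against 59.8, Ntn1 at 63.1 against 18.01, and Robo1 at 63.0 against 12.2. Ephb1 at 60.2 CPM against 11.4, Sema3d at 34.7 against 4.42, Sema3g at 33.4 against 16.9, Efna4 at 29.5 against 8.56, and Efna1 at 9.25 against 4.84 completed them. Secreted ligands, membrane ligands and receptors were all among these 10.

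In GMYC tumor 5 the level of Unc5c was 53.7 CPM against 25.3 CPM in the next GMYC tumor, Sema3d 26.8 against 7.67, Efnb1 19.9 against 15.2, and Sema3b 4.02 against 1.88. GMYC tumor 4 had Sema4a at 12.8 CPM against 5.59, Efna3 at 6.59 against 0.860, and Ntn5 at 1.21 against 0.321. GMYC tumor 2 had Epha3 at 112 CPM against 30.7 and Ephb6 at 48.0 against 28.5, and GMYC tumor 6 had Efnb2 at 32.2 CPM against 15.6 and Efna4 at 5.22 against 0.964. Among GTML tumors, Slit1 was at 48.0 CPM in tumor 5 against 15.5, Epha6 at 8.52 in tumor 6 against 2.60, and Plxnb3 at 16.9 in tumor 7 against 6.39.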

How the results depend on the processing

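Over the named genes, 811 values were recomputed under the alternatives. Of these 654 kept their direction and their side of the stricter call rule, 111 no longer passed it, 18 newly passed it, and 28 turned their direction. The number of members called higher in GTML was 3 and in GMYC 2. It was 8 and 3 with DESeq2, 1 and 2 with limma-voom, 0 and 0 among tumors rich in small nucleolar RNAs, here the higher side (14 and 5 at an unadjusted p under 0.05), 0 and 2 on the lower side, 0 and 0 with the Y-linked covariate (20 and 4 unadjusted), and 7 and 4 without GTML tumors 2 and 3. With an adjusted p under 0.05 the 12 and 3 members became 20 and 4 with DESeq2, 11 and 4 with limma-voom, 0 and 0 on the higher side, 8 and 6 on the lower side, 6 and 3 with the covariate, and 18 and 5 without GTML tumors 2 and 3. Sema5b lost its call without a filter on low counts, with protein-coding genes only, with a small nucleolar RNA term, with thinned counts and with the exon length trend removed. The calls over all genes moved too, from 444 and 232 to 1312 and 579 with DESeq2, 418 and 430 with limma-voom, 0 and 2 on the higher side, 83 and 44 on the lower side, 51 and 10 with the covariate, and 792 and 389 without GTML tumors 2 and 3. At an adjusted p under 0.05 the counts over all genes were 2418 and 2041. They became 3305 and 2547 with DESeq2, 2101 and 2388 with limma-voom, and 0 and 2 on the higher side. The lower side gave 1328 and 1334, the covariate 1125 and 554, and the fit without GTML tumors 2 and 3 gave 2947 and 2795. At an unadjusted p under 0.05 the counts over all genes were 1355 and 1065 of 18921 on the higher side and 3413 and 2705 of 21024 with the covariate. The causes were not tested, though the sides hold fewer tumors. Of the other guidance genes 4 were called higher in GTML and 1 in GMYC. These counts were 7 and 2 with DESeq2, 2 and 0 with limma-voom, 1 and 1 with the small nucleolar RNA term, 0 and 0 on the higher side (6 and 8 unadjusted), 1 and 0 on the lower side, 0 and 0 with the Y-linked covariate (13 and 7 unadjusted), 4 and 2 with the exon length trend removed, and 4 and 0 without GTML tumors 2 and 3.

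Leaving out each tumor in turn gave 1 to 6 members called higher in GTML and 2 to 4 in GMYC, with 7 to 16 and 3 to 5 at an adjusted p under 0.05. The lowest count of 1 came without GMYC tumor 3 and without GMYC tumor 5, and the highest counts without GTML tumor 2. Over all genes the calls ran from 74 to 1038 and from 40 to 586. At an adjusted p under 0.05 they ran from 1433 to 3264 and from 1184 to 3166. These all-gene counts were also lowest without GMYC tumor 3 (20965 tested) and highest without GTML tumor 2 (20936 tested). For the other guidance genes the ranges of calls were 0 to 6 and 0 to 2, beside the same ranges over all genes. None of them was called higher in GTML without GMYC tumors 1, 3, 5 or 6 or GTML tumor 5.

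With the replicate block, the calls were 0 and 0 for members (15 and 5 at an unadjusted p under 0.05, 2 and 1 at an adjusted p under 0.05), 0 and 0 for the other guidance genes (12 and 9 unadjusted), and 7 and 3 over all genes. Of all 21024 genes 2805 and 2661 had an unadjusted p under 0.05 with the block, and 164 and 87 an adjusted p under 0.05. The replicate numbers only name the tumors: correlations of the deviations of same-numbered tumors ran from -0.21 to 0.24, and 1 of 6 tumors correlated best with its own number. Under the block the log2 fold changes were 2.76 for Plxna4 (adjusted p = 0.0456), 1.34 for Efnb1 (0.0329), 1.95 for Sema5b (0.0923), -2.87 for Plxnc1 (0.0578) and -2.64 for Robo2 (0.025).

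Most turned values were small. The largest were -0.994 for Epha8, 0.815 for Robo1 and 0.786 for Ntn4, all on the higher side, with adjusted p of 0.381, 0.724 and 0.396 with edgeR. Epha8 turned to -0.025 with limma-voom, -0.001 with protein-coding genes only, -0.078 with the replicate block, -0.235 with the small nucleolar RNA term, -0.994 on the higher side and -0.058 with the exon length trend removed, and ran from -0.125 to 0.15 with single tumors left out. Ntn4 turned to 0.059 with the term and 0.786 on the higher side and ran from -0.271 to 0.139. Nrp2 turned to -0.100 with the block, -0.111 on the higher side and -0.107 with the length trend removed, and ran from -0.009 to 0.157. Plxnb2 turned to -0.006 with the block, -0.123 on the lower side and -0.076 with the length trend removed, and Sema4c to -0.002 on the lower side. Efna4 had no value on the higher side and Ntn5 none on either, since they did not pass the filter there.

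Depth limits the scarce members most: Ntn5 reached 15 counts at most, and counts of Epha1 ran from 7 to 42.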
